A study of Mus musculus with 56 samples.

Results

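Hippocampal mRNA of 15 epileptic mice given the Csf1R inhibitor PLX3397 at a daily dose of 30 mg/kg was set against that of 6 naive mice given vehicle, so 21 of the 56 arrays of the series were compared directly. The members were chosen by sample title alone. The comparison addresses how much of the disease profile was left under the higher dose, and which genes lay beyond the healthy level. All animals were male NMRI mice, an outbred strain. Epileptic mice had received 300 mg/kg pilocarpine, which set off status epilepticus that was ended with diazepam after 3 h, and they were taken with spontaneous recurrent seizures. Naive mice were not epileptic and were added to the experiment separately, and no naive mouse received PLX3397, so an effect of the drug on a healthy hippocampus was not measured. The drug or its vehicle was given daily by oral gavage, for 7 days according to the sample labels and for 2 weeks according to the series text. Epileptic mice given vehicle (17 arrays) served to define the epileptic change, and mice given 3 mg/kg (18 arrays) entered the same statistical model.

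Csf1R is the receptor for Csf1 and Il34 on microglia, macrophages and monocytes, which depend on its signal for proliferation and survival. In the epileptic hippocampus microglia and astrocytes become reactive, astrocytes build up intermediate filaments, complement proteins are made by both cell types, and pyramidal neurons and some interneurons are lost while dentate granule cells sprout. Type I interferon acts through its receptor to switch on a shared set of antiviral genes, and chemokines such as Ccl12 and Cxcl10 call in leukocytes. Since whole hippocampus was measured, fewer cells of a type and less RNA per cell cannot be told apart in any of the values below.

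Values are quantile normalised log2 signals, in which a difference of 1 is a doubling, and a gene is called where limma's Benjamini-Hochberg adjusted p was under 0.05 over the 9893 genes tested. Array median signals before normalisation were 119.5 to 150.1 in naive mice and 119.2 to 150.8 at 30 mg/kg, and 45.1% to 49.8% and 44.9% to 48.8% of probes were detected. Of the naive mice 3 belonged to an earlier and 3 to a later run of the submitters' sample numbers. At 30 mg/kg 2 mice belonged to the earlier run and 13 to the later. The 2 earlier treated mice are too few for a comparison of their own, so the comparison was repeated within the later run (3 naive against 13 treated mice). There 65 of the 240 genes named by rule lost their call, and those named below are marked as such. List members outside these 240 genes were not followed singly. Of the epileptic vehicle mice 11 belonged to the earlier run and 6 to the later, and of the 3 mg/kg mice 8 and 10. For single genes, comparisons with these groups and the shares left were not repeated by run, so they are not adjusted for it. Hippocampal markers were present: C1ql2, Prox1, Fibcd1, Wfs1, Spink8 and Neurod2 all passed the detection filter.

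Most of the epileptic profile was still visible at 30 mg/kg. Against naive mice, 1300 genes were higher (13.1% of those tested) and 1734 lower (17.5%). In epileptic vehicle mice, compared with the same naive mice, these numbers were 2232 (22.6%) and 2619 (26.5%). These shares are the background for the counts of gene lists below. Of the 2232 genes higher in epilepsy, 1162 were still higher at 30 mg/kg, 1067 no longer passed the test and 3 had passed to the other side of naive. Of the 2619 genes lower in epilepsy, 1572 were still lower, 1047 did not pass and 0 were higher than naive. Both comparisons use the same naive mice, so deviations of these mice shift both in the same direction. The counts of genes still on the epileptic side or across naive are therefore a description. Without a call in epileptic vehicle mice, 138 further genes exceeded naive at 30 mg/kg and 159 lay below it, and of these 297 genes 147 also differed in the same direction from the vehicle mice. Differences of at least 1.5-fold from naive were found for 86 of the higher genes and 91 of the lower genes, and of at least 2-fold for 19 and 3. The split between directions depended on scaling. With arrays aligned on their medians in place of their whole distributions, 480 genes were higher and 2273 lower, which moved the share of calls that were higher from 42.8% to 17.4%. With the run as a block the counts were 1290 and 1690, and within the later run 546 and 909.

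The size of what was left can be given per gene as the difference from naive at 30 mg/kg divided by that in epileptic vehicle mice. The same naive mice enter both differences, so the shares are a description as well. Among the 382 genes raised at least 1.5-fold in epilepsy, the median share left was 55.2% (quartiles 45.3% and 67.6%), and 313 of them were still called. Among the 323 genes lowered at least 1.5-fold it was 63.0% (52.4% and 73.8%), and 289 were still called. Shares under 50% were found for 136 raised and 71 lowered genes, and shares above 100%, where the treated mice lay further from naive than the vehicle mice, for 17 and 9.

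The treated mice differed widely from each other. Each mouse was placed on the line from the naive mean (0%) to the epileptic vehicle mean (100%) over the genes called between those groups, leaving it out of its own group mean. By construction the vehicle mice lie around 100%, from 77.4% to 117%, and the naive mice around 0%, from -6.41% to 8.28%. The genes themselves were chosen with all of these mice included. At 30 mg/kg the 15 mice ranged from 28.6% to 89.1%, with a median of 67.0% and an SD of 20.2. No treated mouse reached the naive range, and 5 lay within the range of the vehicle mice. The 15 values left a gap of 17.5 percentage points between 7 mice at or below 49.5% and 8 mice at or above 67.0%, with the next largest gap at 10.7 points. Mice on both sides of the gap occurred within sets 5, 7 and 8 of 8 consecutive sample numbers. Mice given 3 mg/kg ran from 39.4% to 93.2% with a median of 54.1%. Genes raised in epilepsy placed the 30 mg/kg mice at 26.3% to 87.0% and genes lowered in epilepsy at 31.1% to 91.4%.

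**Figure D1:**
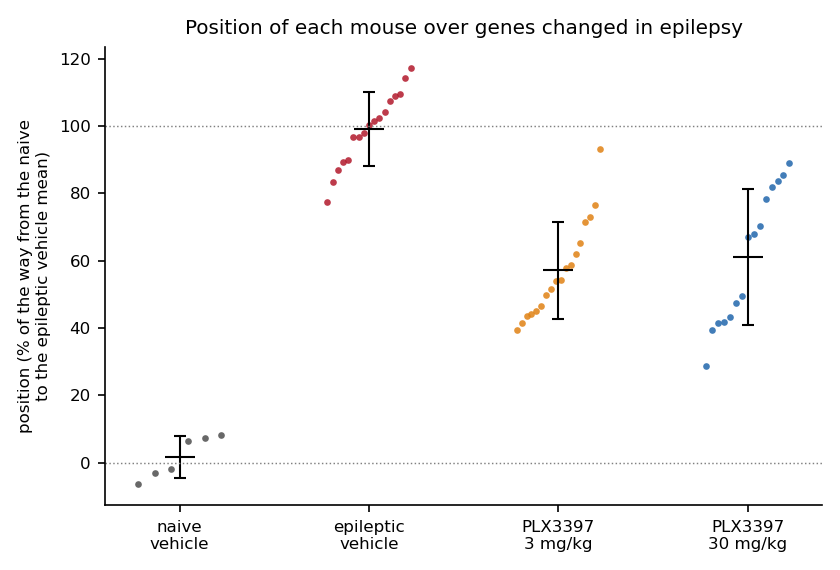
Position of each mouse (points) on the line from the naive mean to the epileptic vehicle mean, in percent, for the 4 groups; black bars are the mean and SD. All 15 mice at 30 mg/kg lie above the highest naive mouse (8.28%), and 5 lie within the range of epileptic vehicle mice, which starts at 77.4%.

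Some astrocyte genes and 6 of 9 tested complement genes stayed above naive. Gfap, the intermediate filament of reactive astrocytes, ran from 7.83 to 8.08 (median 7.92) in the naive mice, from 9.19 to 11.71 (median 10.02) in epileptic vehicle mice and from 8.65 to 10.72 (median 9.75) at 30 mg/kg. Every treated mouse was above the highest naive one, while the treated and vehicle ranges overlapped. The difference from naive was 1.78 ± 0.27 (SE, 3.43-fold, adjusted p = 1.02e-06), which left 76.8% of the epileptic difference (95% interval 60.3% to 93.7%). Vim, a second filament gene of these cells, remained 1.29 ± 0.31 higher (adjusted p = 0.000882) and Serpina3n, a secreted protease inhibitor, 0.93 ± 0.21 (adjusted p = 0.000404). Of 21 tested genes of a reactive astrocyte list, 4 were higher at 30 mg/kg and 0 lower, beside 13.1% and 17.5% of all genes. In vehicle mice 9 were higher and 1 lower. The fourth gene higher at 30 mg/kg was Cxcl10, a chemokine described with the interferon genes. Median differences from naive were 0.15 and 0.24, beside 0.00 and -0.01 over all genes tested. Timp1 (0.64), Emp1 (0.35), Osmr (0.33) and Cd44 (0.22) were called in epilepsy and not at 30 mg/kg. Among 16 genes of resting astrocytes 4 were higher (Clu, Cst3, Aldoc and Ntsr2) and Fgfr3 was lower (-0.21), a receptor without a call in vehicle mice (0.05). The call of Fgfr3 was lost with the run as a block (-0.15, adjusted p = 0.0907), with the replicate block and within the later run, where Cst3, Aldoc and Ntsr2 were not called either.

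C4b, the complement component whose cleavage tags surfaces for removal, lay at 8.06 to 8.82 (median 8.45) in naive mice and at 9.72 to 11.03 (median 10.53) under 30 mg/kg, with no overlap. Its difference from naive was 1.91 ± 0.23 (3.75-fold, adjusted p = 3.63e-09) against 1.93 in vehicle mice, and 98.9% of the epileptic change was left (82.6% to 118%). The shares were smaller for the 3 chains of C1q, which starts the classical pathway and in brain comes mainly from microglia. C1qb retained 44.5% (20.0% to 64.1%), C1qc kept 62.3% (37.5% to 84.7%), and C1qa no longer passed the test (0.26 against 0.98 in vehicle mice). Serping1, the C1 inhibitor, kept 91.7% with a wide interval (50.7% to 148%). In all, 6 of 9 tested complement genes were higher and 0 lower, with medians of 0.49 at 30 mg/kg and 0.73 in vehicle mice. Under median scaling 4 of the 9 and within the later run 3 of the 9 were called. C1qb lost its call in both settings and Serping1 within the later run (adjusted p = 0.0884 and 0.179 in that run).

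**Figure D2:**
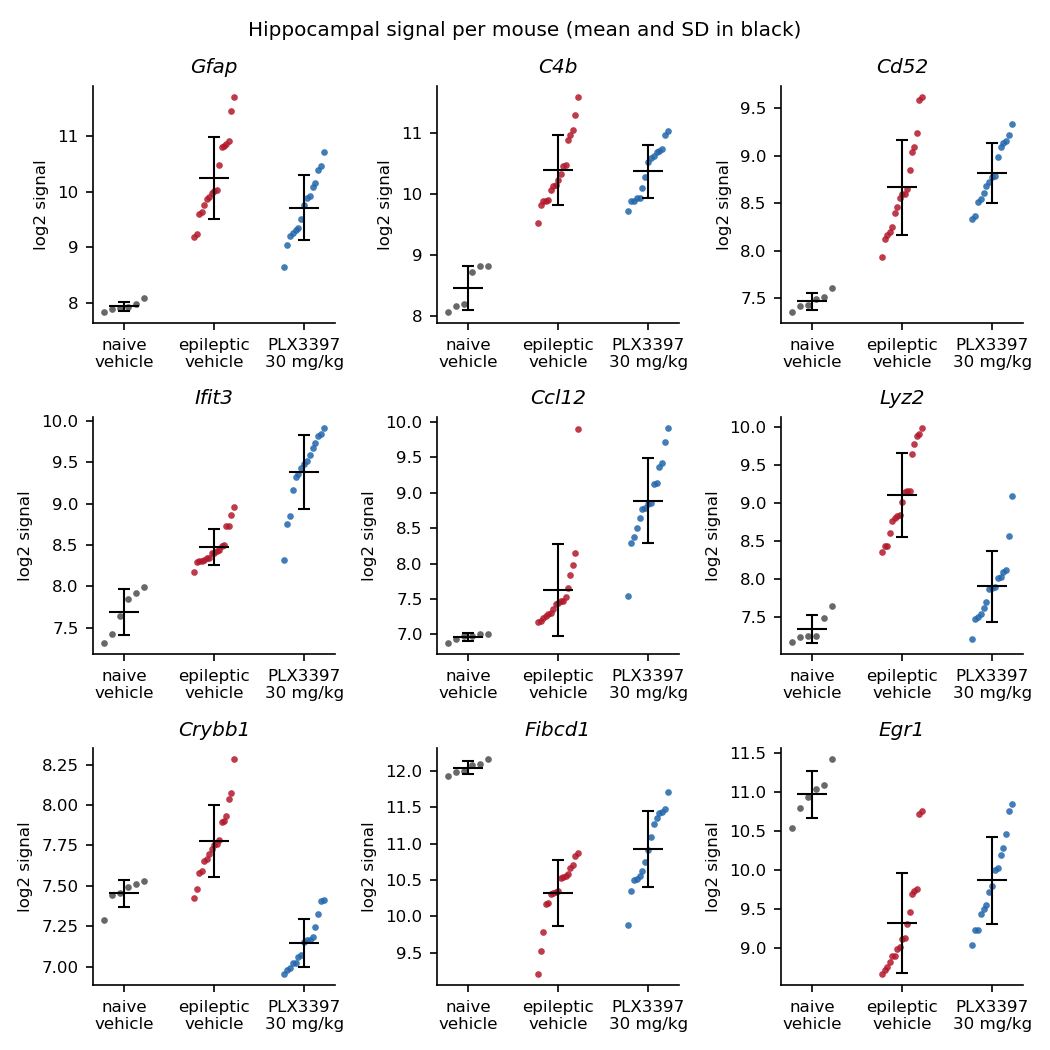
Quantile normalised log2 signal of 9 genes in each naive, epileptic vehicle and PLX3397 30 mg/kg mouse (points), with mean and SD in black. Gfap, C4b, Cd52, Ifit3 and Ccl12 at 30 mg/kg lie above every naive mouse, Fibcd1 below every naive mouse, and Crybb1 below the naive range in 12 of 15 mice.

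No tested gene of resting microglia was called above naive at 30 mg/kg, and 3 of 14 were called below it, beside 17.5% of all genes tested. The 3 genes that were higher in epilepsy and lower than naive at 30 mg/kg were Crybb1, Mrc1 and Arrb1. Crybb1, a crystallin made by resting microglia, lay at 7.29 to 7.53 (median 7.47) in naive mice, 7.43 to 8.29 (median 7.75) in vehicle mice and 6.95 to 7.41 (median 7.15) at 30 mg/kg, where 12 of 15 mice were below the lowest naive mouse. It was detected on 8 of the 15 treated arrays, so these are dim values near background. The difference from naive was -0.31 ± 0.09 (adjusted p = 0.00519) and that from vehicle mice -0.64 ± 0.06 (adjusted p = 1.64e-10). Mrc1, the mannose receptor of perivascular macrophages, fell below naive by 0.28 (adjusted p = 0.0027) and was detected on 10 treated arrays, and 13 of 15 mice were below the lowest naive value. Arrb1, a beta-arrestin that uncouples G protein receptors, was 0.20 lower (adjusted p = 0.0142). Within the later run none of the 3 passed, with differences of -0.32 for Crybb1, -0.27 for Mrc1 and -0.07 for Arrb1, and leaving out naive replicate 1 left 1 such gene of 3.

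Of 14 tested genes of resting microglia, 0 were higher and 3 lower than naive at 30 mg/kg (Crybb1, Selplg and Bin1), whereas 10 had been higher and 1 lower in vehicle mice. Their median difference was -0.11, against 0.36 in vehicle mice, and 11 of the 14 were lower than in vehicle mice, where the background of such calls was 15.7% of genes (16.3% were higher than in vehicle mice). Cx3cr1, the receptor for neuronal fractalkine, was at 8.45 to 9.15 (median 8.89) under treatment and 8.83 to 9.30 (median 8.98) in naive mice. These ranges overlapped and the difference of -0.18 ± 0.10 did not pass (adjusted p = 0.15), although it did under median scaling. Tmem119 (0.10), Siglech (0.09), Gpr34 (-0.11), P2ry13 (-0.11) and Fcrls (-0.22) were not called either. Olfml3, a secreted glycoprotein, was the highest of the list at 0.27 and not called, but it was called higher with sets of 8 sample numbers as a block (0.37, adjusted p = 0.0486), with array weights and with only the compared groups in the model. Bin1, a membrane-bending protein also made by neurons and oligodendrocytes, was low in both epileptic groups (-0.32 and -0.43). The call of Selplg, a selectin ligand, was lost with the run as a block (adjusted p = 0.0638) and within the later run. Under median scaling 5 of the 14 were lower. Of 7 genes of perivascular macrophages 3 were lower than naive: Mrc1, F13a1 (-0.16), a coagulation factor chain, and Stab1 (-0.13), a scavenger receptor. The last 2 were detected on only 2 and 3 treated arrays, and F13a1 was not called with the run as a block or within the later run. Csf1r itself had no named probe and was not analysed here.

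A minority of other myeloid genes remained above naive, with unequal shares of the epileptic change left. Lyz2, lysozyme of macrophages, was at 7.16 to 7.65 (median 7.25) in naive mice, 8.35 to 9.98 (median 9.01) in vehicle mice and 7.21 to 9.08 (median 7.87) at 30 mg/kg. In 10 of 15 treated mice it was above the naive range, and 1 treated mouse was above the vehicle median. The share left was 32.0% (8.56% to 50.1%), and for its paralog Lyz1 33.9% (10.0% to 52.4%); the probes of this pair may not separate the near-identical transcripts. Neither difference from naive (0.56 and 0.77) passed with the run as a block (adjusted p = 0.0609 and 0.0769) or within the later run. Lyz2 and Lyz1 had the smallest shares left among the 30 largest changes of epilepsy, followed by Ctsh, a lysosomal protease not called within the later run, at 45.2%, Cela1, an elastase, at 49.6% and Cyba, the small subunit of the phagocyte oxidase, at 56.6%.

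Cd52, a lipid-anchored glycoprotein of leukocyte surfaces, behaved otherwise. It lay at 7.35 to 7.61 (median 7.46) in naive mice, 7.93 to 9.62 (median 8.59) in vehicle mice and 8.34 to 9.34 (median 8.78) at 30 mg/kg. All 15 treated mice exceeded the naive range, and 11 exceeded the vehicle median. Its difference from naive was 1.35 ± 0.17 (adjusted p = 1.9e-08), with 113% of the epileptic change left (92.2% to 140%). Gpnmb, a glycoprotein of lipid-laden phagocytes, kept 75.0% (54.4% to 95.8%) of a difference of 2.12. Aif1, the gene of the microglial marker Iba1, kept 61.9% (44.7% to 77.7%) and was above every naive mouse in 15 of 15, and Tyrobp, the adaptor that signals for Trem2, kept 37.3% (15.7% to 54.5%). Trem2, which senses lipids on phagocytes, and Fcgr3, an activating antibody receptor, had been 1.07 and 1.10 above naive in epilepsy. At 30 mg/kg their differences were 0.01 and -0.07. Of 16 tested pan-myeloid genes 4 were higher and 0 lower (Cyba, Aif1, Tyrobp and Arhgdib) against 10 and 0 in vehicle mice, with medians of 0.02 and 0.23. Of 23 genes of disease-associated phagocytes 10 were higher and 2 lower (Lpl and Timp2, both low in vehicle mice as well) against 14 and 2. Tyrobp was not called under median scaling or within the later run.

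Several interferon-induced genes lay higher above naive at 30 mg/kg than in untreated epilepsy. Ifit3, which binds foreign RNA and is switched on by interferon, ran from 7.31 to 7.99 (median 7.74) in naive mice, from 8.18 to 8.96 (median 8.40) in vehicle mice and from 8.32 to 9.91 (median 9.48) at 30 mg/kg. No treated mouse overlapped the naive range, and 14 of 15 were above the vehicle median. It was 1.69 ± 0.17 above naive (3.24-fold, adjusted p = 6.68e-11) and 0.91 ± 0.12 above vehicle mice (adjusted p = 1.43e-07). Isg15, a ubiquitin-like protein attached to other proteins, was 0.78 ± 0.10 above naive (adjusted p = 2.49e-08) and 0.51 ± 0.07 above vehicle mice (adjusted p = 4.36e-07), and each of 15 treated mice exceeded the naive range. Lgals3bp (0.81 above naive), a secreted glycoprotein, Irf9 (0.45), the DNA-binding subunit of the interferon-activated complex, and Igtp (0.44), a GTPase that acts on pathogen vacuoles, had moved away from naive in the same way, with shares of 210%, 187% and 173%. Usp18, which strips Isg15 from proteins and damps the interferon receptor, was 0.70 ± 0.09 above naive (adjusted p = 4.38e-08) and had no call in vehicle mice (0.11), from which it differed by 0.59 ± 0.07 (adjusted p = 5.53e-09).

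In the whole interferon list, 18 of 24 tested genes were higher than naive and 1 lower at 30 mg/kg, against 15 and 1 in vehicle mice, and 8 were higher than in vehicle mice with 0 lower. The median difference from naive was 0.43 at 30 mg/kg and 0.24 in epilepsy. Under median scaling 17, with the run as a block 19 and within the later run 15 of the 24 were higher. Not all members moved with the treatment. Ifitm3 (1.14 above naive), Ifitm2 (0.82) and Gbp2 (0.75), which restrict pathogens in cells, were 1.02, 1.00 and 0.69 above naive in vehicle mice, and none of the 3 differed by call between the treated and vehicle groups. Stat2 was the lower member (-0.11, and -0.19 in vehicle mice). Iigp1 and Ifi35 were not called in either group (0.02 and -0.02 at 30 mg/kg), and the probes for Irf7, Ifit1 and Rtp4 did not pass the detection filter.

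The promoter windows of these genes were read to show the DNA element through which the interferon-activated complex is known to act. RefSeq windows of 300 bases (250 before to 50 after the transcript start, assembly GRCm38.p6) were searched on both strands for the core of the interferon-stimulated response element, GAAA and GAAA with any 2 bases between them, and overlapping copies were counted separately. Of the 18 genes of the list that were higher at 30 mg/kg 15 had a window, and 10 of these held the core (66.7%), 9 of them before the start and Ifitm3 only after it. It was also held by 2 of 5 other tested members with a window (40.0%) and by 1079 of all 27025 genes with a window (3.99%). The first 3 sequences below belong to genes that were further from naive under treatment than in vehicle mice, and Gbp2 is shown beside them as a gene that was equally high in both. Capitals mark the core on either strand, and each is written 5′ to 3′ along the strand of its gene, at chr19:34583353-34583436 (plus), chr4:156200855-156200916 (minus), chr11:58199502-58199551 (plus) and chr3:142620584-142620633 (plus).
Ifit3: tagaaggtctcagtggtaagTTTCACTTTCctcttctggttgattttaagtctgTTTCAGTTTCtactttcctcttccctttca
Isg15: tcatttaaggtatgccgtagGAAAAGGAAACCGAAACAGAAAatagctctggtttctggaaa
Igtp: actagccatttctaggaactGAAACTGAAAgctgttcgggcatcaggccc
Gbp2: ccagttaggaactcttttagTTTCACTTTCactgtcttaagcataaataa

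Ifit3 carried 2 cores, the first 156 bases before its start, and Isg15 3 overlapping ones, from 78 bases before it. The windows of Lgals3bp and Irf9, which were also further from naive than in vehicle mice, held no match in these letters. A match was read as a description of the sequence only, since binding was not measured.

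Of the chemokines, Ccl12 and Cxcl10 rose most. Ccl12, a ligand of the monocyte receptor Ccr2, was not detected on any of the 6 naive arrays (6.88 to 7.01, median 6.98) and was detected on all 15 arrays at 30 mg/kg, where it reached 7.54 to 9.92 (median 8.84). In vehicle mice it lay at 7.18 to 9.91, but the median of 7.44 was lower than in all 15 treated mice. Its mean of 8.89 at 30 mg/kg was at least 3.55-fold above the lowest signal that counts as detected on the naive arrays, used here because a level below background has only a bound (measured difference from naive 1.92 ± 0.26, adjusted p = 5.89e-08). Treated mice exceeded vehicle mice by 1.26 ± 0.19 (adjusted p = 8.44e-07). Cxcl10, an interferon-induced ligand of Cxcr3 on T cells, was likewise undetected in naive mice and detected in 15 of 15 treated mice, at least 1.60-fold higher (measured difference 0.82 ± 0.11, adjusted p = 3e-08), and it was 0.58 ± 0.08 above vehicle mice (adjusted p = 1.07e-07).

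Among 16 tested chemokines and cytokines 8 were higher and 2 lower than naive at 30 mg/kg, and 8 were higher and 3 lower in vehicle mice. Cxcl16 (0.52), Ccl4 (0.42), the alarmin Il33 (0.32) and Il18 (0.25) were higher in both epileptic groups. Il1a (0.18) was higher than naive under treatment only as a dim signal, undetected on all naive arrays and detected on 8 of 15 treated arrays. Both lower genes are made by neurons and signal to microglia: Cx3cl1, the ligand of Cx3cr1, was 0.49 ± 0.10 below naive with 48.3% of the epileptic change left (33.2% to 61.5%), and Il34, a second ligand of Csf1R, was at -0.29 against -0.49. Csf1, the first ligand, was not called (0.07). Gpr84, a receptor for medium-chain fatty acids on activated myeloid cells, belongs to none of these lists and was the highest gene without a call in vehicle mice. It lay at 6.89 to 7.20 in naive mice and at 7.41 to 8.23 in treated mice, without overlap, a difference of 0.87 ± 0.11 (adjusted p = 1.53e-08), and 0.67 ± 0.08 above vehicle mice (adjusted p = 1.11e-08).

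Antigen presentation genes showed less. Of 11 tested genes of the MHC class I and II pathways 3 were higher at 30 mg/kg, B2m (0.79), H2-DMb1 (0.20) and Tapbp (0.11), and 0 lower, against 4 and 0 in vehicle mice. H2-DMb1 and Tapbp were not called within the later run. H2-Ab1 and Cd74, parts of the class II complex and its assembly, were 0.81 and 0.39 above naive in vehicle mice and were not called at 30 mg/kg (0.26 and 0.00).

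**Figure D3:**
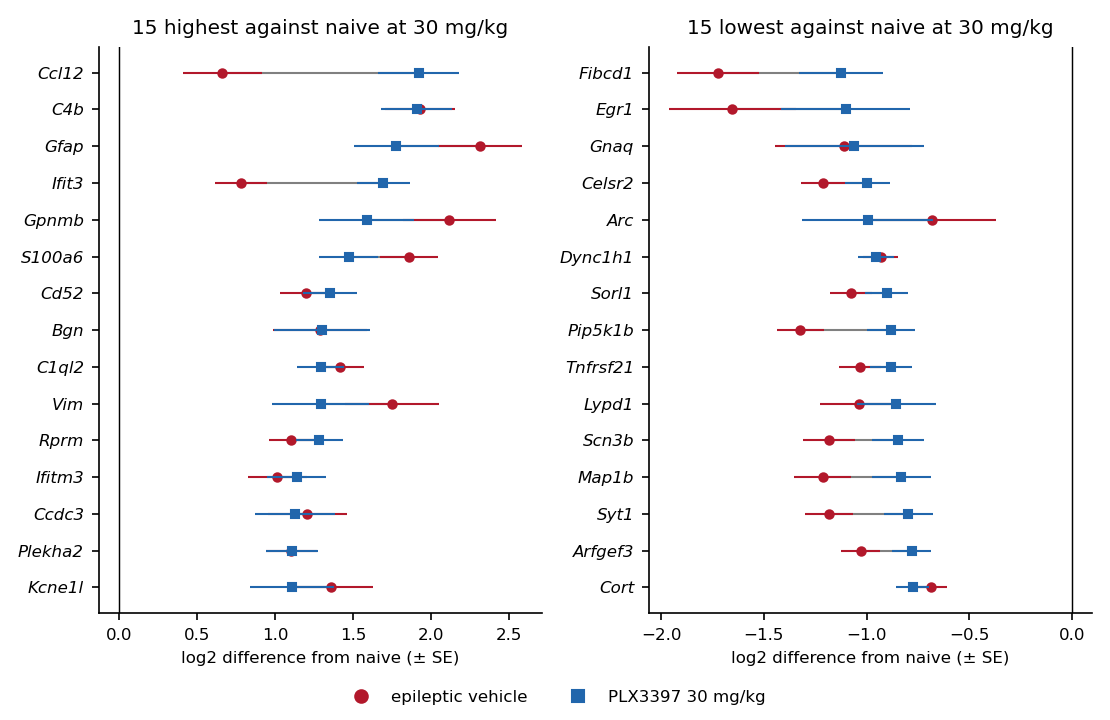
Difference from naive on the log2 scale, with its SE, of the 15 genes most raised and the 15 most lowered at 30 mg/kg (squares), beside the same gene in epileptic vehicle mice (circles). Ccl12 and Ifit3 lie further from naive under treatment, while Gfap, Fibcd1, Egr1 and Syt1 lie closer to it.

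Some matrix and granule cell genes also stayed above naive. Bgn, the proteoglycan biglycan, was at 9.62 to 11.95 (median 10.62) in treated and at 8.97 to 10.04 (median 9.21) in naive mice, with 12 of 15 treated mice above the naive range. It differed by 1.30 ± 0.31 (adjusted p = 0.000761), with 101% of the epileptic change left (68.3% to 150%). Ptgds, a prostaglandin synthase of the meninges (0.99), Col6a1, a chain of collagen VI (0.98), Mgp, an inhibitor of calcification (0.88), Igfbp7 (0.62) and the proteoglycans Dcn (0.57) and Lum (0.40) were also higher. Thus 7 of 21 tested genes of the list were higher and 0 lower, and in vehicle mice also 7 and 0, with 6 genes shared. Igfbp7 had no call in vehicle mice. None of the 7 was called different between the treated and vehicle groups. Under median scaling 4 of them and within the later run 2 were called, and Igfbp7 was also lost with the run as a block (0.42, adjusted p = 0.1). Bgn and Col6a1 were the 2 that held within the later run. Sparc, a collagen-binding glycoprotein that microglia also make, was 0.69 above naive in vehicle mice and 0.07 at 30 mg/kg.

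C1ql2, a secreted synaptic organiser of dentate granule cells, lay at 10.26 to 10.70 (median 10.44) in naive mice and 10.88 to 12.22 (median 11.78) at 30 mg/kg, without overlap. The difference of 1.29 ± 0.15 (adjusted p = 2.76e-09) was 91.1% of that in epilepsy (76.3% to 107%). Rasl10a (0.62) and Prox1 (0.48), the transcription factor that defines granule cells, were higher too, while Il16 (-0.15) and Ahcyl2 (-0.37) were lower, out of 8 tested genes. Prox1 and Ahcyl2 had no call in vehicle mice. Prox1 was not called under median scaling or within the later run, nor was Ahcyl2 within the later run. Rprm, which arrests the cell cycle, was 1.29 ± 0.15 higher with 116% left (96.7% to 142%). S100a6, a calcium-binding protein, was 1.47 ± 0.19 higher with 79.2% left (65.3% to 93.6%), and Plekha2, which binds a membrane phosphoinositide, was 1.11 ± 0.17 higher with 101% left (79.9% to 127%). All 15 treated mice exceeded the naive range for each of these 3 genes.

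In the main comparison most tested pyramidal cell, interneuron and synaptic vesicle genes remained below naive, with fewer calls within the later run. Fibcd1, a receptor for acetylated sugars that marks CA1 pyramidal cells, was at 11.93 to 12.17 (median 12.05) in naive mice, 9.20 to 10.87 (median 10.35) in vehicle mice and 9.88 to 11.71 (median 10.91) at 30 mg/kg, so that no treated mouse reached the naive range. The difference from naive was -1.12 ± 0.20 (2.18-fold lower, adjusted p = 1.92e-05), 65.2% of that in epilepsy (47.9% to 81.4%), and treated mice were 0.60 ± 0.15 above vehicle mice (adjusted p = 0.00128). Of 14 tested CA pyramidal genes 9 were lower and 0 higher, among them Mpped1 (-0.66), Wfs1 (-0.60), Pou3f1 (-0.42) and Htr1a (-0.38), against 11 and 0 in vehicle mice. The median difference was -0.34, and -0.58 in vehicle mice. Within the later run 4 of the 14 were called lower, and Wfs1 was not.

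Of 13 tested genes of GABAergic interneurons 8 were lower and 0 higher, with medians of -0.28 and -0.48. Within the later run 7 of the 13 were called lower. Cort, the neuropeptide cortistatin, was at 7.73 to 8.33 (median 8.03) in naive and 6.98 to 7.45 (median 7.23) in treated mice, a difference of -0.77 ± 0.08 (adjusted p = 1.16e-10) with 113% left (96.3% to 134%). Reln (-0.57), the matrix protein reelin, kept 88.4%. Slc32a1, which loads GABA into vesicles, was closer to naive, at -0.34 ± 0.08 with 41.7% left (24.2% to 56.4%). Pvalb, the calcium buffer of fast-spiking cells, was lower at 30 mg/kg (-0.30 ± 0.08, adjusted p = 0.00171) and not called in vehicle mice (-0.14), from which it also differed (adjusted p = 0.0217), but it was not called within the later run. Npy, the neuropeptide that granule cells make after seizures, was 1.01 above naive in vehicle mice and 0.75 at 30 mg/kg, where it was not called.

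Genes of transmitter release were among those that remained low. Syt1, the calcium sensor of transmitter release, lay at 11.72 to 12.04 (median 11.86) in naive mice, 10.40 to 11.11 (median 10.62) in vehicle mice and 10.68 to 11.64 (median 10.98) at 30 mg/kg. All 15 treated mice were below the naive range and above the vehicle median. It was 0.80 ± 0.12 below naive (-0.80, adjusted p = 6.38e-07), with 67.3% left (52.8% to 81.3%). Of 22 tested genes of synaptic vesicles and release 15 were lower and 0 higher, among them Sv2a (-0.65), the binding site of levetiracetam, and Syn1 (-0.55), against 20 lower and 1 higher in vehicle mice, and 16 of the 22 were higher than in vehicle mice. Nsf, which recycles the release machinery, had moved further than most, from -0.81 to -0.25. Postsynaptic genes were lower in 9 of 16 (0 higher), with medians of -0.24 and -0.26. Within the later run 9 of the 22 vesicle genes and 6 of the 16 postsynaptic genes were called lower. The AMPA receptor subunits Gria1 (-0.52) and Gria2 (-0.43) kept 67.4% and 57.2%.

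Dlg4, the scaffold PSD-95, went the other way. It lay at 8.91 to 9.27 (median 9.10) in naive mice, 8.44 to 9.09 (median 8.84) in vehicle mice and 8.44 to 8.86 (median 8.69) at 30 mg/kg, and all 15 treated mice were below the naive range. It was -0.43 ± 0.08 from naive (adjusted p = 1.42e-05) and -0.18 ± 0.06 from vehicle mice (adjusted p = 0.0113). Other genes that were lower than naive in epilepsy and lower again at 30 mg/kg were Igsf21 (-0.44), a synaptic adhesion protein, Adgrb2 (-0.42), an adhesion receptor, Agap3 (-0.42), a regulator of glutamate receptor traffic, and Srcin1 (-0.38), a postsynaptic Src inhibitor, with 139% to 167% of the epileptic change.

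No tested gene of the potassium, HCN, sodium and calcium channel lists was called above naive at 30 mg/kg. Of 29 tested potassium and HCN channel genes 13 were lower and 0 higher, against 17 and 1 in vehicle mice. Compared with vehicle mice 6 of the 29 were higher and 1 lower, beside 16.3% and 15.7% of all genes. Of 19 sodium and calcium channel genes 10 were lower than naive and 0 higher, against 13 and 0 in vehicle mice. Among these 19, 7 were higher than in vehicle mice and 0 lower. Within the later run 8 of the 29 and 5 of the 19 were called below naive. Scn3b, an auxiliary sodium channel subunit, was lowest at 8.08 to 8.76 (median 8.49) against 9.11 to 9.46 (median 9.36) in naive mice, without overlap, a difference of -0.85 ± 0.13 (adjusted p = 7.88e-07) with 71.6% left (56.2% to 86.8%). Scn1a, the sodium channel of inhibitory cells mutated in Dravet syndrome, was at -0.71 ± 0.11 with 98.5% left (77.5% to 124%), Kcnd2, the A-type channel of dendrites, at -0.69 with 75.5%, and Cacna2d1, the gabapentin binding subunit, at -0.67 with 126% (86.6% to 211%). Cacna2d1 was not called within the later run (adjusted p = 0.0644). By contrast Scn4b, which had been 1.02 below naive in epilepsy (-1.02), was at -0.44. No GABA-A receptor gene of the 5 tested was called. Genes of calcium and calmodulin signalling were lower in 12 of 22 and higher in 0, with medians of -0.25 and -0.47. Atp2b1, a calcium pump (-0.72), and Camkk2, a kinase (-0.71), were the lowest of them.

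Some genes switched on by neuronal activity were lower than naive in treated and in untreated epileptic mice. Egr1, a transcription factor of this kind, was at 10.54 to 11.43 (median 10.98) in naive mice, 8.66 to 10.76 (median 9.11) in vehicle mice and 9.03 to 10.85 (median 9.79) at 30 mg/kg, with 13 of 15 mice below the naive range. Its difference was -1.10 ± 0.31 (adjusted p = 0.00517). Arc, which shuttles RNA between synapses, was at 8.18 to 10.23 (median 8.89) against 9.12 to 10.70 (median 10.11), with 11 of 15 mice below the naive range and a difference of -0.996 ± 0.32 (adjusted p = 0.0128). It had no call in vehicle mice (-0.68, adjusted p = 0.0658), and treated and vehicle mice did not differ by call (adjusted p = 0.316). Within the later run Egr1 (-1.02, adjusted p = 0.107) and Arc (-0.51) did not pass. Of 18 tested immediate early genes 8 were called below naive and 0 above it under treatment, against 7 and 0 in vehicle mice. Within the later run 2 of 18 were called below it, beside 909 of 9893 genes in all, and none was called between the treated and vehicle groups.

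Further genes at the lower end act in transport, adhesion and signalling. Celsr2, a cadherin of planar polarity, was -0.997 ± 0.11 from naive with 82.4% left (69.9% to 95.4%), and Sorl1, a sorting receptor for the amyloid precursor, was -0.90 ± 0.10 with 83.6% left (70.3% to 97.7%). Dync1h1, the heavy chain of the dynein motor, kept 102% (89.3% to 118%) at -0.95 ± 0.09, and Tnfrsf21, the death receptor DR6, kept 85.3% (71.5% to 100%) at -0.88 ± 0.10. In each of these 4 genes all 15 treated mice lay below the naive range. Gnaq, a G protein subunit, was -1.06 ± 0.34 from naive (adjusted p = 0.0128), but 1 treated mouse was above the naive range, 11 of 15 arrays detected it, and it was not called within the later run (adjusted p = 0.169).

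The oligodendrocyte precursor gene Pdgfra lay furthest below naive among the genes low in epilepsy and called lower again at 30 mg/kg. It lay at 8.42 to 8.78 (median 8.69) in naive mice, 8.02 to 8.60 (median 8.35) in vehicle mice and 7.82 to 8.33 (median 8.12) at 30 mg/kg. All 15 treated mice were below the naive range and 0 were above the vehicle median. The difference from naive was -0.55 ± 0.06 (adjusted p = 2.09e-09) and from vehicle mice -0.24 ± 0.05 (adjusted p = 8.52e-05). Gpr17 (-0.62), a receptor of cells about to make myelin, and Cspg4 (-0.18), the NG2 proteoglycan, were the other 2 lower genes of 7 tested for these cells, and Olig1 (-0.30) was not called. With sets of 8 sample numbers as a block Gpr17 lost its call (-0.50, adjusted p = 0.0775) and Olig1 was called lower (-0.36, adjusted p = 0.000397), as it was with the run as a block. Gpr17 was not called within the later run. Of 17 myelin genes 4 were lower (Mobp, Fa2h, Ugt8a and Tspan2) and 0 higher, beside 17.5% and 13.1% of all genes tested, with 6 lower and 3 higher in vehicle mice. None of these 4 was called within the later run. Tenm4, a teneurin adhesion protein, had no call in vehicle mice (-0.29) and was at 8.88 to 9.42 (median 9.27) under treatment against 9.90 to 10.06 (median 9.96) in naive mice, without overlap, a difference of -0.77 ± 0.14 (adjusted p = 3.38e-05). It was -0.49 ± 0.11 from vehicle mice (adjusted p = 0.000284).

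Many ribosomal and respiratory chain genes stayed modestly above naive, and many chaperone and clock genes below it. Of 32 tested cytosolic ribosomal protein genes 26 were higher than naive at 30 mg/kg and 0 lower, against 29 and 0 in vehicle mice, with medians of 0.22 and 0.42. Rps3, a component of the small subunit, was at 11.72 to 12.50 (median 12.16) in treated and 11.24 to 11.66 (median 11.55) in naive mice, without overlap, and 59.5% of its epileptic change was left (45.8% to 72.3%). Respiratory chain genes were higher in 24 of 48 and lower in 0, with medians of 0.16 and 0.27. The number of calls in both groups depended on scaling: under median scaling 11 of the 32 and 3 of the 48 were called, with medians of 0.17 and 0.12. Within the later run 11 of the 32 and 11 of the 48 were called higher, with medians of 0.21 and 0.14. Chaperone genes were lower in 9 of 16, such as Pdia4 (-0.46) and Hsp90b1 (-0.43) of the endoplasmic reticulum, and circadian clock genes in 6 of 13, such as Per2 (-0.46) and Per1 (-0.38), with 0 higher in either group. Per2 was not called within the later run.

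**Figure D4:**
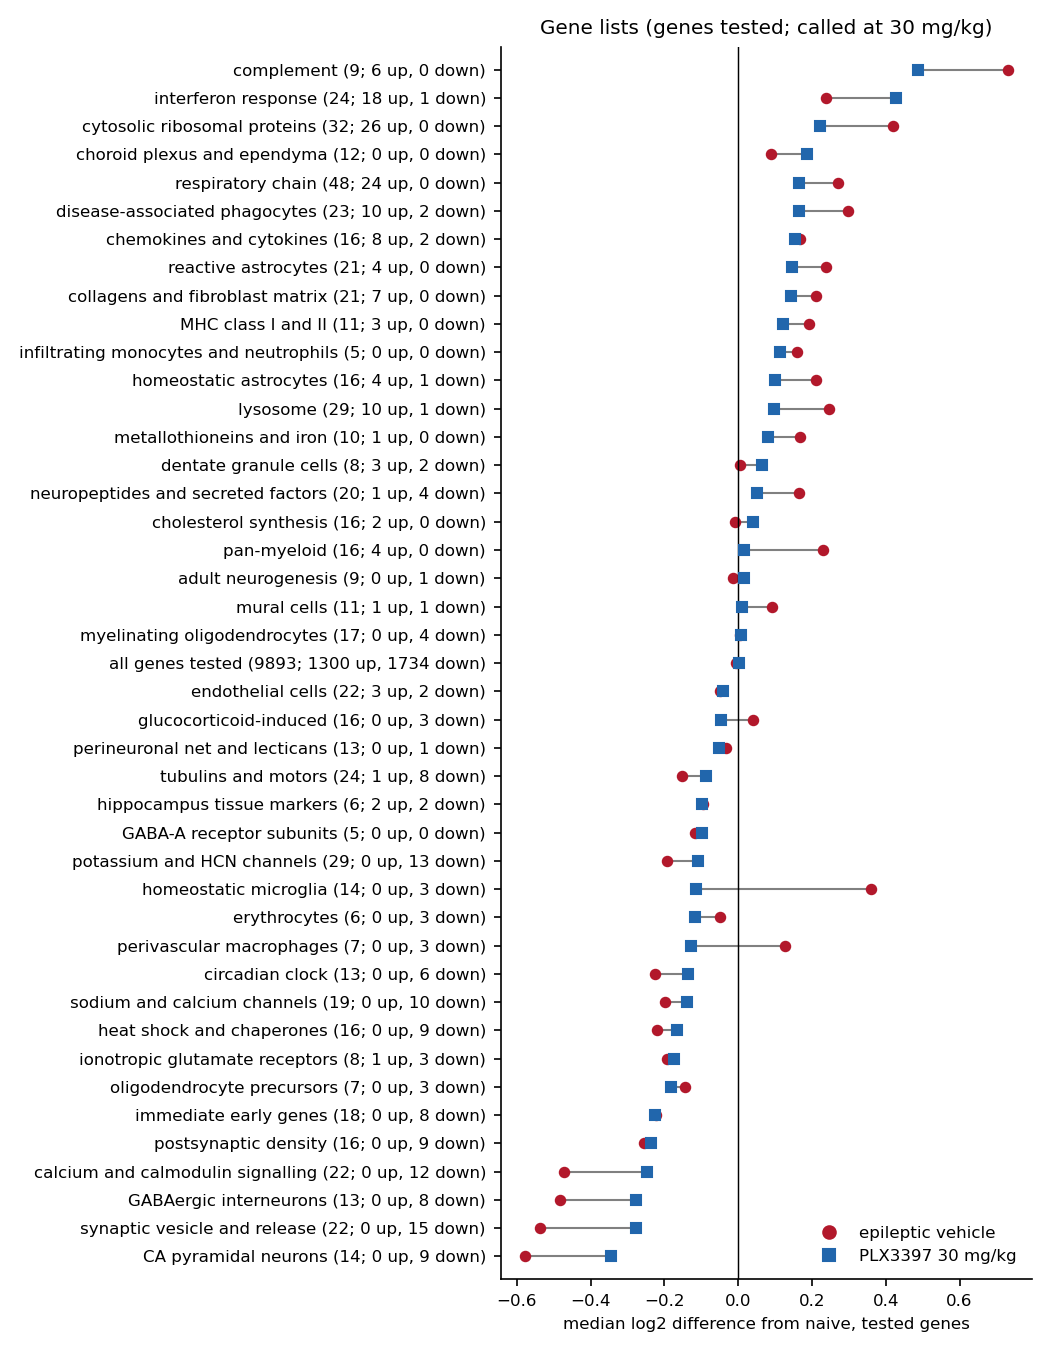
Median log2 difference from naive over the tested genes of each list in epileptic vehicle mice (circles) and at 30 mg/kg (squares); labels give the genes tested and how many were called higher or lower at 30 mg/kg. Interferon genes lie further above naive at 30 mg/kg (0.43) than in vehicle mice (0.24), resting microglia genes cross from 0.36 to -0.11, and the medians of the synaptic lists stay below naive.

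Markers of cells that could enter the dissected tissue were looked at where a probe passed the detection filter. No gene of 15 listed for T and B lymphocytes did. Of 12 listed genes of monocytes and neutrophils 5 were tested, and 0 were called at 30 mg/kg (Ly6c1 at 0.32, S100a8 at 0.17). In vehicle mice 3 of these 5 were higher than naive and 0 lower. Choroid plexus genes varied widely within groups. Ttr ran from 8.83 to 14.16 in naive mice and from 10.16 to 14.32 in treated mice, and 0 of 12 tested genes of the list were called. Their median difference was 0.19, and -0.33 within the later run. Of 6 erythrocyte genes 3 were lower (Hba-a1 at -0.57, Alas2 at -0.36 and Bpgm at -0.11). None of the 3 was called within the later run, and the part of blood content in other results was not tested. Of 22 endothelial genes 3 were higher and 2 lower, beside 13.1% and 17.5% of all genes tested, with a median of -0.04.

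The dose comparison showed where the higher dose stood out. Between 30 and 3 mg/kg, 91 genes were higher (0.920% of those tested) and 124 lower (1.25%), and the interferon and chemokine genes that lay beyond the epileptic level were among them. Ccl12 was 1.51 ± 0.19 higher at 30 than at 3 mg/kg (adjusted p = 1.29e-07), Ifit3 0.89 ± 0.12 (adjusted p = 1.42e-06), Gpr84 0.71 ± 0.08 (adjusted p = 2.29e-08) and Cxcl10 0.64 ± 0.08 (adjusted p = 7.23e-08). At 3 mg/kg Ccl12 (0.41), Gpr84 (0.16), Cxcl10 (0.17), Usp18 (0.13) and Isg15 (0.20) were not called against naive. Cd52 was also higher at the higher dose (0.63 ± 0.12, adjusted p = 0.00149).

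In the other direction, Crybb1 (-0.50 ± 0.06), Mrc1 (-0.42 ± 0.05), F13a1 (-0.33 ± 0.05), Pdgfra (-0.33 ± 0.05), Cx3cr1 (-0.35 ± 0.07) and Lyz2 (-0.66 ± 0.16) were lower at 30 than at 3 mg/kg, with adjusted p of 1.81e-07, 3.31e-07, 1.42e-06, 1.42e-06, 0.00124 and 0.0127. Crybb1, Mrc1 and Arrb1 were not called against naive at 3 mg/kg (0.20, 0.13 and 0.01). Gfap, C4b, Fibcd1 and Egr1 were not called between doses, with differences of 0.26, 0.01, -0.17 and -0.06.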

How the data were processed

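Groups and replicate numbers came from the submitters' sample titles. Per the labels and methods, the authors deposited probe intensity extracted with GenomeStudio 2011.1, without normalization, a detection p-value beside each intensity, and their own lumi table, in which the log2 values were quantile normalized. The intensities were log2 transformed and quantile normalized over 56 arrays. Of 25697 probes, 14058 were retained whose detection p was below 0.05 in 6 arrays or more, and the brightest probe stood for each of 9893 genes. Probe names came from GEO's platform annotation, updated through RefSeq identifiers. The authors' log2 columns differed from these values by at most 0.0437.

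All 4 groups entered 1 limma 3.58.1 model (R 4.3.3, no covariates, Benjamini-Hochberg, threshold 0.05). P-values measure the spread between arrays, each taken as 1 mouse. The share left carries a 95% Fieller interval, on the log2 scale. Array number limits the precision: in simulated data 25, 48, 49 and 50 of 50 genes changed by a log2 of 0.2, 0.4, 0.8 and 1.2 were recovered over 9893 genes. Only these genes were changed there and the noise was independent, while 3034 genes were called in the data. The recovered numbers therefore give no rate for this comparison. Same-numbered naive and treated mice did not deviate together. Alternatives tried were median scaling, normexp background correction, the authors' log2 values, other detection filters, the mean of a gene's probes, array weights, number sets, runs or replicate numbers as blocks, the later run alone, only the compared groups, a trended variance and leaving out each mouse.

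Named genes were the 15 highest and 15 lowest calls, up to 8 per direction on the other side of naive, without an epileptic call or moved further from naive, the 8 smallest shares left among the 30 largest epileptic changes, and up to 5 members of smallest p in each list. Other list members named above were chosen after their values were seen. Members and lists were chosen with earlier results of these data known.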

Additional observations from a re-analysis of the deposited data

Results flagged for a closer look

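In 9 of 240 named genes 1 naive mouse stood far from the other 5. Chance flags about 1 in 20 groups, and no cause was tested. Naive replicate 1 had an Alas2 signal of 8.55 against 7.26 to 7.61 in the others, and without it the difference at 30 mg/kg was -0.18 and no longer called (adjusted p = 0.159). Naive replicate 3 had Tsc22d3, a glucocorticoid-induced gene, at 11.2 against 9.91 to 10.3, and without it the difference was -0.23 and not called (adjusted p = 0.224). For the other 7 genes the call held without the mouse. Replicate 1 was low in Crybb1 (7.29 against 7.44 to 7.53) and in Rprm (9.47 against 9.80 to 9.99). Replicate 2 was low in Rbbp7 (9.24 against 9.53 to 9.67) and Scn3b (9.11 against 9.33 to 9.46) and high in Tubb4a (11.8 against 11.5 to 11.6). Replicate 6 was low in Neu1 (9.44 against 10.1 to 10.4) and high in S100a6 (8.34 against 8.04 to 8.15).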

How the results depend on the processing

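Median scaling gave 480 higher genes in place of 1300, and 180 in place of 297 genes without an epileptic call. Within the later run, with 3 naive mice, there were 546 higher and 909 lower genes, 1284 in place of 2734 still on the epileptic side, 0 in place of 3 on the other side of naive, and 171 without an epileptic call. Array weights put 9 genes on the other side. Leaving out each mouse gave 1076 to 1363 higher genes, 1482 to 1804 lower, 2330 to 2857 still on the epileptic side, 1 to 4 on the other side and 226 to 345 without an epileptic call. The same-numbered naive and treated mice correlated at 0.0142 to 0.147, 2 of 6 pairs over 0.1 and 1 naive mouse best with its own number, so the numbers were not taken as pairs; with the replicate block 1295 genes were higher, 1639 lower, 2680 still on the epileptic side, 6 on the other side and 248 without an epileptic call. The other alternatives kept these counts within 1.5 times. With only the 2 groups compared no epileptic comparison exists.

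Direction turned for 5 named genes, none of them called in the main comparison: Neurod2 (-6.59e-05 under median scaling, -0.0506 with number sets and -0.0381 with runs as a block, -0.0666 with the replicate block), Gabrb2 (-0.0247 under median scaling, and -0.0139 to 0.0345 when each naive mouse was left out, below 0 also without treated replicate 4 at -0.00084), Gabrg1 (-0.0148 to 0.0279 when each naive mouse was left out, below 0 also without treated replicate 5 at -0.0054), Foxj1 (-0.0084 with the replicate block) and Ttr (-0.68 within the later run). The causes were not tested. Of 240 named genes, 174 kept their side of the threshold within the later run and 209 under median scaling. Dim genes such as Crybb1 and F13a1 lie near background, where a fall is understated.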
